A study of Mus musculus with 6 samples.

Results

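Genes that mark fibroblasts and mural cells were examined in mouse tumors treated by photodynamic therapy with phycocyanin. The set held 10 genes taken by their symbols from the 21899 genes of the deposited table, namely Fn1, Lum, Dcn, Postn, Pdgfra, Fap and Thy1 for fibroblasts and Pdgfrb, Acta2 and Tagln for mural cells. RNA was sequenced from 6 tumors grown from LLC-luc cells, luciferase-labelled Lewis lung carcinoma cells placed under the skin of the left chest of male C57BL/6 mice. Every group was irradiated, so no group here was without the laser. The Laser group was irradiated without a photosensitizer and, by the study's methods, received saline (called laser alone where values are listed). The PC-La group received phycocyanin (PC), a light-absorbing protein of Spirulina, and the SePC-La group received phycocyanin from selenium-enriched Spirulina (Se-PC), each with 2 tumors. According to the sample labels, the agents were injected every 5 days and a 620 nm laser was applied for 10 min, 4 h after the injection. The methods give another wavelength and interval. Such tumors mix LLC cells with host stroma, and nothing separated them before sequencing. Fewer cells of a type and less RNA per cell cannot be told apart in these values, nor can tumor cells and host cells that transcribe the same gene. No source states whether the tumors of a group came from separate mice, so the p-values measure the spread between these samples.

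Fibroblasts build the collagen-rich matrix of connective tissue. Those that gather in tumors are recognised by surface proteins such as PDGF receptor alpha and fibroblast activation protein, and by secreted matrix proteins. Mural cells, the pericytes and smooth muscle cells around vessels, carry PDGF receptor beta and, in the contractile smooth muscle form, actin and actin-binding proteins whose genes are switched on by the serum response factor SRF with its partner myocardin. TGF-beta drives fibroblasts toward a contractile, matrix-secreting state in which some of the same genes are transcribed.

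The main difference lay between the photosensitizers. Fibronectin (Fn1) and fibroblast activation protein (Fap) were lower in SePC-La than in PC-La by the study's criterion of fold and unadjusted p, though not after adjustment over all genes, with PC-La means 4.12 and 6.33 times the SePC-La means. Lum, Dcn and Pdgfra had both SePC-La tumors below both PC-La tumors without passing the test, an order shared by 39.5% of all genes tested. The Laser tumors lay apart from each other, one near PC-La and one near SePC-La. Acta2, Thy1, Pdgfrb and Postn did not follow this pattern. Tagln was at or near 0 in every tumor. All values are FPKM, reads on a gene scaled by its exon length and by the reads counted on all genes, so levels can be compared between genes.

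**Figure D1:**
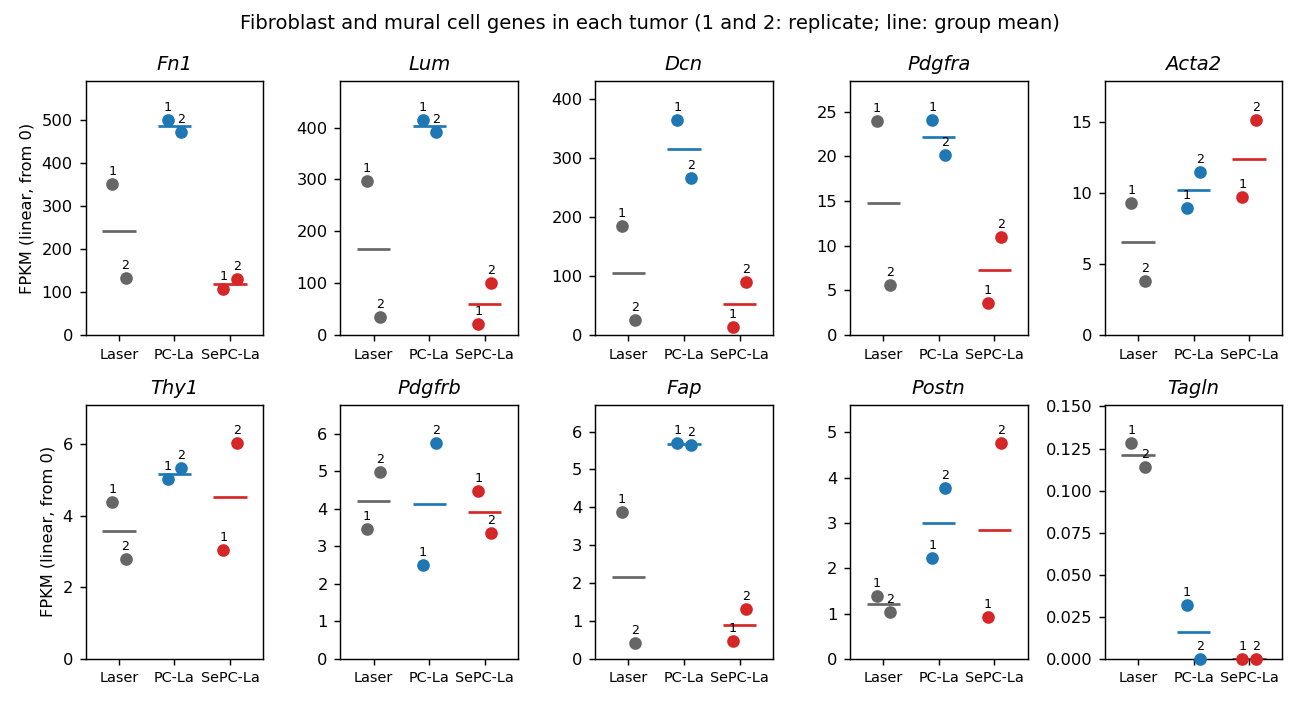
FPKM of the 10 genes in each of the 6 tumors (vertical axes linear from 0, one scale per gene), with the replicate number beside each point and a line at the group mean. Fn1, Lum, Dcn, Pdgfra and Fap shared a shape, with both PC-La tumors above both SePC-La tumors and Laser replicate 2 far below Laser replicate 1, while Tagln stayed at or below 0.128 FPKM.

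The libraries differed in ways that touch these genes. Total reads recovered from the table ran from 14447792 to 17649489 per tumor. The PC-La tumors resembled each other most, with a Pearson correlation of log2 levels over genes of 0.992, beside 0.972 for the SePC-La pair and 0.946 for the Laser pair (genes do not count as replicates). Laser replicate 2 held the most skeletal muscle RNA. The summed level of 8 muscle genes, among them Acta1 and Tnnt3, was 158 FPKM there, 24.7 in Laser replicate 1 and 1.72 to 7.41 in the other tumors. The part of this in the differences from Laser was not tested.

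The test was limma, with all 6 tumors in one fit of log2(FPKM + 1). Fold changes of low genes come out too small on this scale. Of the 10 genes, 9 passed a minimum mean of 1 FPKM and were tested among 10853 genes. Tagln did not pass. The criterion, which the study also used, asked for more than 1 on the log2 scale in either direction together with an unadjusted p below 0.05. No gene of the whole table had an adjusted p under 0.05 with this fit in any of the 3 comparisons (limma, Benjamini-Hochberg). An unadjusted p under 0.05 was reached by 627 genes between PC-La and Laser, 1318 between SePC-La and Laser, and 2637 between SePC-La and PC-La.

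Fn1, on chromosome 1 from 71585520 to 71653200 of GRCm38, was the most abundant of the set. It encodes fibronectin, a large glycoprotein of the matrix that cells hold through integrins and that tumor cells, endothelium and macrophages can also make. Its level was 351 and 134 FPKM in the Laser tumors, 500.2 and 472 with PC, and 106 and 129.6 with Se-PC. Both PC-La tumors were above all others and both SePC-La tumors below all others. The group means were 242 ± 154 (SD, n = 2), 486 ± 19.9 and 118 ± 16.4 FPKM, so that the PC-La mean was 4.12 times the SePC-La mean and 2.01 times the Laser mean. On the log2 scale SePC-La was lower than PC-La (difference -2.04, 95% interval -3.13 to -0.95, unadjusted p = 0.00419, adjusted p = 0.126 from limma). With each tumor left out in turn the difference stayed between -2.18 and -1.90. Fn1 met the criterion in this comparison under every alternative that was run.

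Lum and Dcn encode lumican and decorin, small leucine-rich proteoglycans that bind collagen fibrils and set their spacing. They are neighbours on chromosome 10 of GRCm38, Dcn from 97479609 to 97518143 and Lum from 97565128 to 97572703, with 46984 bases between them. Lum stood at 298 and 34.9 FPKM under laser alone, 415 and 392 with PC, and 22.0 and 99.8 with Se-PC. Dcn stood at 184 and 25.6 FPKM under laser alone, 365 and 265 with PC, and 13.6 and 90.7 with Se-PC. Both genes were lowest in SePC-La replicate 1, followed by Laser replicate 2, and highest in PC-La replicate 1. Within a tumor the level of Lum was 1.10 to 1.62 times that of Dcn, although Dcn itself varied 26.7-fold between tumors.

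The 2 proteoglycan genes also varied within groups. Lum differed 8.52-fold between the Laser tumors and 4.54-fold between the SePC-La tumors, against 1.06-fold between the PC-La tumors. For Dcn these ratios were 7.21, 6.64 and 1.37. SePC-La was below PC-La in Lum (difference -3.07, 95% interval -6.23 to 0.087, adjusted p = 0.214 from limma) and in Dcn (difference -3.09, 95% interval -6.38 to 0.20, adjusted p = 0.222 from limma). Both SePC-La tumors were below both PC-La tumors in each gene, and neither met the criterion. The spread of the Laser tumors enters that result, since the 3 groups share one estimate. So do the settings of the fit. Under the alternatives listed at the end, with all 6 tumors, both genes met the criterion in some fits and neither did in others. With only the 4 photosensitizer tumors in the fit, both genes met the criterion (unadjusted p = 0.0117 for Lum and 0.0281 for Dcn, adjusted p = 0.0736 and 0.109 from limma).

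Pdgfra encodes the alpha receptor for platelet-derived growth factors, carried by most tissue fibroblasts. It lies on chromosome 5 from 75152292 to 75198215. Its level was 23.9 and 5.55 FPKM under laser alone, 24.1 and 20.2 with PC, and 3.54 and 11.0 with Se-PC. Laser replicate 1 fell between the PC-La tumors and Laser replicate 2 between the SePC-La tumors. The difference between SePC-La and PC-La was -1.65 on the log2 scale (adjusted p = 0.253 from limma, standard error 0.76). It met the criterion with the 4 photosensitizer tumors alone (unadjusted p = 0.0153, adjusted p = 0.0821).

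Fap encodes fibroblast activation protein, a membrane-bound serine protease that marks fibroblasts of tumors and healing wounds. It was low, at 3.89 and 0.410 FPKM under laser alone, 5.68 and 5.64 with PC, and 0.465 and 1.33 with Se-PC, which stand for 38 to 503 reads. The PC-La tumors were nearly equal and lay above all others. The PC-La mean was 6.33 times the SePC-La mean. Fap met the criterion between SePC-La and PC-La (log2 difference -1.85, standard error 0.59, unadjusted p = 0.0228, adjusted p = 0.162 from limma). The difference was between -2.19 and -1.52 with each tumor left out, and the call was lost without PC-La replicate 1 (unadjusted p = 0.0835), PC-La replicate 2 (0.0830) or SePC-La replicate 1 (0.107).

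The remaining fibroblast genes, Postn and Thy1, did not meet the criterion in any comparison, and their groups overlapped except between PC-La and Laser. Postn encodes periostin, a matrix protein induced by TGF-beta in wound and tumor stroma. It measured 1.39 and 1.04 FPKM under laser alone, 2.23 and 3.76 with PC, and 0.923 and 4.75 with Se-PC, so the SePC-La tumors held both the lowest and the highest value. Its log2 difference between SePC-La and PC-La was -0.24 (95% interval -1.53 to 1.05), and it turned to 0.55 without SePC-La replicate 1. Thy1 encodes a surface glycoprotein of fibroblasts that is also a classic marker of mouse T cells. It measured 4.38 and 2.80 FPKM under laser alone, 5.02 and 5.33 with PC, and 3.05 and 6.02 with Se-PC. Thy1 was lowest in Laser replicate 2 and SePC-La replicate 1. The summed level of 8 T cell markers was also lowest in those tumors, at 4.15 and 4.14 FPKM against 12.1 to 14.2 in the other tumors. The defining T cell receptor genes were low but present, with Cd3d at 0.458 to 2.12 FPKM. The part of T cells in the Thy1 values was not tested.

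The mural genes gave a different picture. Acta2 encodes smooth muscle alpha-actin, the actin of vascular smooth muscle and of contractile fibroblasts. Its level was 9.33 and 3.84 FPKM under laser alone, 8.97 and 11.5 with PC, and 9.71 and 15.2 with Se-PC. Both SePC-La tumors were above both Laser tumors, with Laser replicate 1 close beneath. The log2 difference between SePC-La and Laser was 0.90 (95% interval -0.081 to 1.87, unadjusted p = 0.0658, adjusted p = 0.428 from limma), so it missed both parts of the criterion. It rose to 1.44 against Laser replicate 2 alone, where Acta2 met the criterion, and was 0.35 against Laser replicate 1 alone.

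Pdgfrb encodes the beta receptor for platelet-derived growth factors, on which pericytes depend. Its level was 3.46 and 4.99 FPKM under laser alone, 2.50 and 5.75 with PC, and 4.49 and 3.36 with Se-PC. The ranges of all 3 groups overlapped, and the PC-La tumors, which were close in most other genes, held its lowest and highest values. The group means lay within 3.92 to 4.22 FPKM. The log2 difference between SePC-La and PC-La was 0.0088 with a 95% interval from -0.81 to 0.83, which leaves room for a change in either direction. Within a tumor, the level of Pdgfra relative to Pdgfrb ranged from 0.788 in SePC-La replicate 1 and 1.11 in Laser replicate 2 to 9.63 in PC-La replicate 1.

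Tagln encodes transgelin, an actin-binding protein abundant in smooth muscle. The table lists it at 0.128 and 0.114 FPKM under laser alone, at 0.0322 and 0 with PC, and at 0 in both SePC-La tumors. These values stand for 4, 4, 1, 0, 0 and 0 reads, and a count of 0 allows up to 0.0864 to 0.104 FPKM (3 reads, counting error only). No fold change is given at this depth. In GENCODE M21, 67.9% of the 1988 exon bases of Tagln are also covered by exons of other genes, 1241 of them by the antisense gene Gm48529, and 639 bases are not shared. No source used here says whether the counting took strand into account or how reads on overlapping genes were assigned, so the level of Tagln is uncertain. Among 346 protein-coding genes with over 50% and up to 90% of their exon bases shared in this way, 22.3% had a mean of at least 1 FPKM and 49.4% were under 0.1 FPKM. Against only the genes with deposited values, the share of Tagln was 5.43%, 108 bases on the opposite strand with Pcsk7. Of 1905 protein-coding genes with over 0% and up to 10% shared in that way, 72.0% had a mean of at least 1 FPKM. Under 0.1 FPKM were 16.0% of them. The part of overlap in the level of Tagln was not tested. Acta2 shares no exon base with another annotated gene.

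The check of the labelled cell types was therefore uneven. Of 16 further fibroblast markers, 13 had a mean of at least 1 FPKM, and Vim, Col3a1, Dpt and Sparc exceeded 100 FPKM on average. Of 16 further smooth muscle and pericyte markers, 9 had a mean of at least 1 FPKM. Among them Tpm1, a tropomyosin found in most cells, ranged from 86.4 to 122 FPKM, and the pericyte gene Rgs5 from 3.58 to 8.20. Some smooth muscle genes of this list were at or near 0, with Myh11 at 0.227 to 0.378 FPKM, Cnn1 at 0 to 0.278 and Lmod1 at 0 to 0.0806. Others had measurable levels, with Cald1 at 43.6 to 66.2 FPKM, Tpm2 at 23.8 to 31.6, Smtn at 14.5 to 24.3 and Myl9 at 1.37 to 6.01. These marker genes were picked by their role after their values were seen. None of the 9 tested smooth muscle and pericyte markers met the criterion in any comparison, and the smallest unadjusted p between SePC-La and PC-La was that of Rgs5 (log2 difference -0.78, unadjusted p = 0.00477, adjusted p = 0.126 from limma).

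SRF binds the CArG box, a run of A and T bases framed by CC and GG, in promoters of smooth muscle genes. Of the 10 genes, 3 (Acta2, Pdgfra and Postn) have promoter windows in the RefSeq table used here, on build GRCm38.p6. Acta2 is printed because it was the contractile gene of the set with a measurable level. The 250 bases before its RefSeq start, at chr19:34255374-34255623 on the minus strand, read 5′ to 3′ with the matches in capitals.
Acta2: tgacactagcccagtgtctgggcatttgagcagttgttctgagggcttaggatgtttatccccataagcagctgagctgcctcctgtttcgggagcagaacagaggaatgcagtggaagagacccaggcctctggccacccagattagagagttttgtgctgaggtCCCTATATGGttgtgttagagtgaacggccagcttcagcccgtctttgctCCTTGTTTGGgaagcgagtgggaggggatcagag
The capitals mark CArG boxes with 1 core base changed to G or C, which start 84 and 34 bases before the RefSeq start. In GENCODE M21 the gene extends to 34255590, so most of this window lies inside it there. A box reads as the same motif on both strands. The unchanged CArG box was not in this window. Of 32851 windows of the same length, 1.47% held the unchanged box, 7.24% the changed form and 0.67% at least 2 boxes of either form. No box of either form was in the windows of Pdgfra and Postn. A match is a description of the letters, and binding was not measured here.

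The SRF partners were measured as well. Srf ranged from 21.6 to 36.9 FPKM and was highest in the SePC-La tumors, at 36.9 and 33.5 against 21.6 and 25.5 in PC-La (log2 difference 0.56, adjusted p = 0.126 from limma, under the fold of the criterion). The coactivator gene Mrtfa was at 8.03 to 12.8 FPKM. Myocd, which encodes the smooth muscle coactivator myocardin, was listed at 0 in every tumor.

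**Figure D2:**
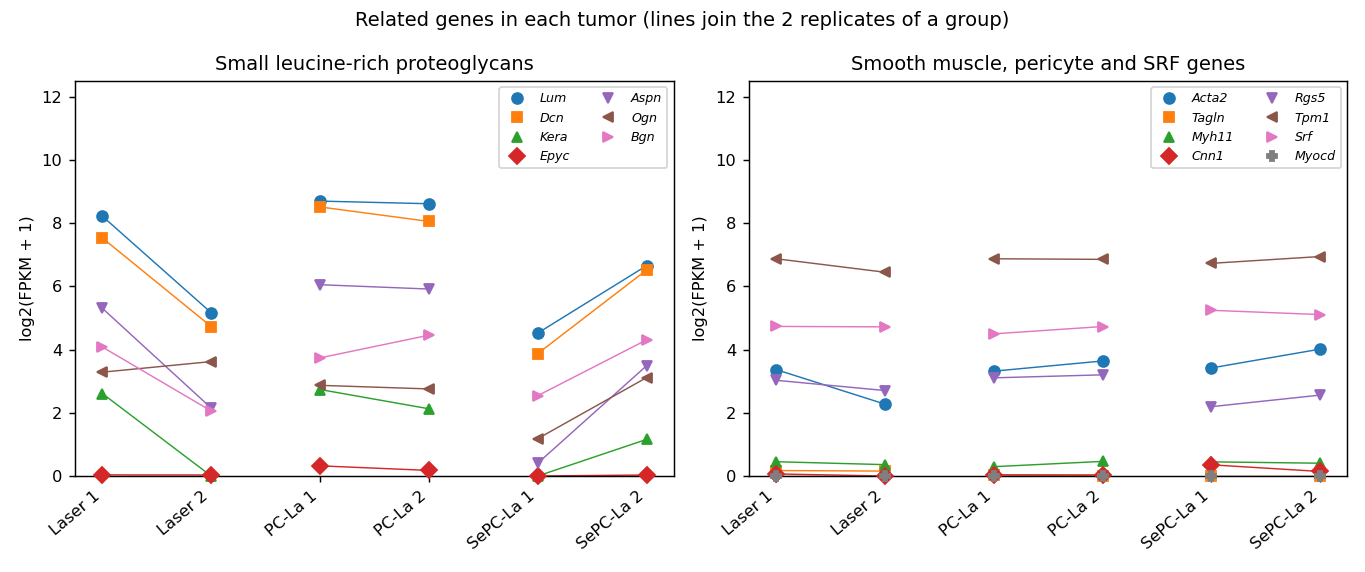
Log2(FPKM + 1) of related genes in each tumor, with a line joining the 2 replicates of a group. Left, the small leucine-rich proteoglycans, where Aspn and Kera followed Lum and Dcn and Ogn did not. Right, smooth muscle, pericyte and SRF genes, where Tagln, Myh11, Cnn1 and Myocd lay at or near 0 beside Acta2.

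The comparison of PC-La with Laser asked what phycocyanin added to irradiation. Of the 9 tested genes 8 had a higher estimate in PC-La, and Fn1 alone met the criterion, against 1.29% of all genes tested (0.866% higher in PC-La). The median log2 fold change of the 9 genes was 0.85, beside -0.00062 over all genes tested. Fn1 differed by 1.16 (standard error 0.44, unadjusted p = 0.0405, adjusted p = 0.753 from limma), with both PC-La tumors above both Laser tumors. Its call was lost without any one of Laser replicate 2 (0.47), PC-La replicate 1 (1.12), PC-La replicate 2 (1.20), SePC-La replicate 1 or SePC-La replicate 2 (1.16 each), and with only the 4 tumors compared. Dcn had the largest estimate, 2.15 with a 95% interval from -1.13 to 5.44. The groups did not overlap in 6 of the 9 genes, where 42.0% of all genes tested did so.

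These values rested on Laser replicate 2. Without Laser replicate 1, so that PC-La was set against Laser replicate 2 alone, 6 of the genes met the criterion, namely Acta2, Dcn, Fap, Fn1, Lum and Pdgfra. The median was then 1.81. Without Laser replicate 2 no gene met it and the median was 0.44. Pdgfra turned to -0.11 in that case.

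SePC-La was compared with Laser to ask what the selenium-enriched protein added. No gene of the set met the criterion, where 0.682% of all genes tested did, and none had an unadjusted p under 0.05, where 12.1% of all genes tested did. The groups did not overlap in 2 of the 9 genes, Acta2 and Fn1, beside 40.6% of all genes tested. With voom on recovered reads, a method added after the data were seen, Acta2 met it at 1.07. The median log2 fold change was -0.51 over the 9 genes and -0.065 over all genes tested. Fn1 was lower in both SePC-La tumors than in both Laser tumors, by a log2 difference of -0.88 (95% interval -1.97 to 0.21, adjusted p = 0.467 from limma). The direction of the set depended on the Laser tumor chosen. Without Laser replicate 2 the median of the 9 genes was -1.41, beside -0.079 over all genes tested. Without Laser replicate 1 it was 0.42, beside -0.038 over all genes tested. The estimate for Postn was 1.38 without SePC-La replicate 1.

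Between SePC-La and PC-La, which share no Laser tumor, 2 of the 9 genes met the criterion, Fn1 and Fap. Both were lower in SePC-La, as were 1.8% of all genes tested (2.98% in both directions). The groups did not overlap in 5 of the 9 genes, where 65.5% of all genes tested did not. Those 5 were Fn1, Lum, Dcn, Pdgfra and Fap, and all were lower in SePC-La, as were 39.5% of all genes tested. The median of the 9 genes was -1.65, beside -0.074 over all genes tested. The count varied with the samples and the variance model. It was 5 with only these 4 tumors in the fit, where the count over all genes tested also rose, from 323 to 449. In that fit Fn1 (adjusted p = 0.0108) and Fap (adjusted p = 0.0305) passed limma's adjusted threshold as 2 of 637 genes. Leaving out SePC-La replicate 2 gave a median of -2.18 over the 9 genes, beside -0.093 over all genes tested. Leaving out SePC-La replicate 1 gave -0.94, beside -0.051. The median was -1.52 without PC-La replicate 1 and -1.77 without PC-La replicate 2.

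**Figure D3:**
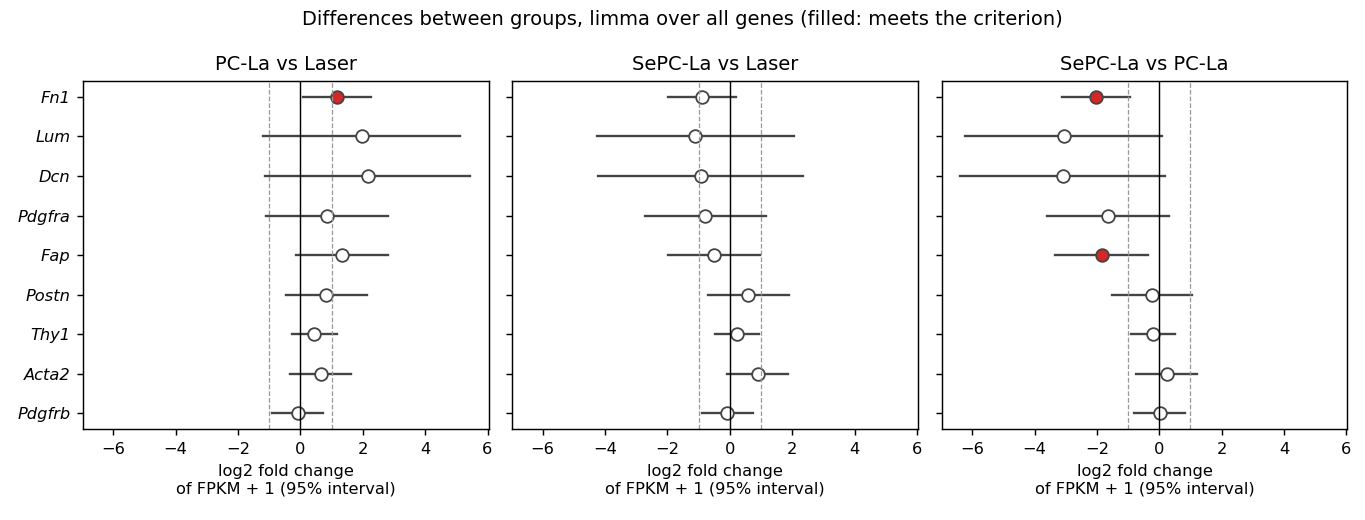
Log2 fold changes of FPKM + 1 for the 9 tested genes in the 3 comparisons, with 95% intervals from limma (points, estimates; filled points, criterion met; dashed lines at -1 and 1). The intervals of Lum and Dcn are the widest, and the filled points are Fn1 in PC-La against Laser and Fn1 and Fap in SePC-La against PC-La.

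Other small leucine-rich proteoglycans were then set beside Lum and Dcn. Of 8 further genes 4 were tested, and Aspn, which encodes asporin, met the criterion between SePC-La and PC-La. Its level was 38.6 and 3.44 FPKM under laser alone, 65.5 and 59.4 with PC, and 0.323 and 10.2 with Se-PC (log2 difference -4.04, standard error 1.43, adjusted p = 0.189 from limma). Its tumors fell in the same order as those of Lum and Dcn. No gene of this list met the criterion in either comparison with Laser.

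The neighbours of these genes were looked up by place after the values of Lum and Dcn were seen. Kera and Epyc follow Lum on chromosome 10 at gaps of 34175 and 30375 bases. Kera was at 5.11 and 0 FPKM under laser alone, 5.67 and 3.37 with PC, and 0 and 1.23 with Se-PC, and Epyc did not exceed 0.250 FPKM. Beyond this group lie Btg1 on one side and, past Ccer1, which was listed at 0 in every tumor, Atp2b1 on the other. They ranged from 55.1 to 90.3 and from 16.1 to 23.5 FPKM. Aspn lies on chromosome 13 beside Omd and Ogn. Ogn, 2 genes further on, was highest in Laser replicate 2, at 11.3 FPKM, where Aspn was at 3.44.

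Of the further fibroblast markers 13 were tested. Pdpn and Ly6c1 met the criterion between SePC-La and PC-La, both higher in SePC-La and so opposite to Fn1. Pdpn encodes podoplanin, a mucin-like membrane protein of fibroblasts and lymphatic endothelium, and was at 3.66 and 3.79 FPKM with PC and 8.61 and 8.48 with Se-PC (log2 difference 1.01, adjusted p = 0.0763 from limma). Ly6c1 is shared with endothelium and monocytes. It was also lower in PC-La than in Laser (log2 difference -1.19, adjusted p = 0.705). The median of this list was -0.32 between SePC-La and PC-La, with 7 of the 13 estimates lower in SePC-La and 6 higher. The lowest were those of Mfap4 (log2 difference -3.48), Dpt (-2.92) and Col3a1 (-2.37), which did not meet the criterion. Among fibrillar collagens, Col3a1 was at 72.8 to 895 FPKM and Col1a1 at only 1.91 to 23.2, so that the level of Col3a1 was 17.1 to 112 times that of Col1a1 in the same tumor. That ratio was lowest in the SePC-La tumors, at 18.3 and 17.1. The collagens were singled out after their values were seen, and neither met the criterion.

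PDGF and TGF-beta are the signals that act on these cells. Of the 4 PDGF ligand genes 3 were tested and none met the criterion. Pdgfa had the smallest unadjusted p-values, with 8.46 and 6.10 FPKM under laser alone, 6.59 and 7.84 with PC, and 14.8 and 11.7 with Se-PC. Its log2 difference was 0.79 both between SePC-La and PC-La (unadjusted p = 0.00608, adjusted p = 0.126 from limma) and between SePC-La and Laser (unadjusted p = 0.00615, adjusted p = 0.376). Pdgfb followed, between PC-La and Laser (log2 difference 0.85, unadjusted p = 0.0243, adjusted p = 0.753 from limma). Of 14 tested genes of the TGF-beta list, 3 met the criterion as lower in SePC-La than in PC-La. They were the ligand Tgfb3 (21.4 and 20.4 against 5.89 and 8.23 FPKM) and the receptors Tgfbr1 (13.7 and 15.4 against 3.11 and 4.65) and Tgfbr2 (26.1 and 27.2 against 6.77 and 16.2). Tgfbr1, like Fap, was lowest in Laser replicate 2 and SePC-La replicate 1. The list had a median of -0.036, close to that of all genes.

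Integrins are the receptors for fibronectin and periostin. Of 6 tested subunits none met the criterion, and 5 had lower estimates in SePC-La than in PC-La. Itgb5 was at 42.3 and 44.2 FPKM with PC and 22.3 and 22.3 with Se-PC (log2 difference -0.93, adjusted p = 0.126 from limma). Itgb1, the common beta chain, was at 301 and 299 FPKM with PC and 210.3 and 219.5 with Se-PC (log2 difference -0.48, adjusted p = 0.126). The level of Fn1 relative to Itgb1 was 1.43 and 0.568 under laser alone, 1.66 and 1.58 with PC, and 0.506 and 0.590 with Se-PC.

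The genes whose levels followed the mean of the 9 tested genes most closely were Jak2, Myo1f, Ext1, Tgfbi and Kctd12. Their Pearson correlations with that mean over the 6 tumors were 0.999, 0.998, 0.996, 0.994 and 0.993, the highest among 7485 genes. Tgfbi, which encodes a TGF-beta-induced matrix protein, ranged from 51.1 FPKM in Laser replicate 2 to 143 in PC-La replicate 2. Jak2 moved over a narrower range, from 13.9 to 22.9 FPKM. The mean gave each gene equal weight after scaling to its own spread, also the genes outside the pattern of Fn1. On it SePC-La replicate 2 (0.18) lay near Laser replicate 1 (0.27). In Fn1, Lum, Dcn, Pdgfra and Fap, SePC-La replicate 2 lay well below Laser replicate 1. The points share their libraries, and the correlations are given as a description.

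Markers of other cell types were summed beside the set. The summed level of the 10 genes was 879 and 213 FPKM under laser alone, 1329 and 1181 with PC, and 164 and 362 with Se-PC. Of 8 macrophage markers, C1qa and C1qc met the criterion as lower in SePC-La than in PC-La. Estimates were lower for 6 of the 8 and higher for 2, Cd68 (log2 difference 0.31) and Mrc1 (0.28). Most of the summed level of these markers came from C1qa, C1qb and C1qc. That sum was 657 and 702 FPKM under laser alone, 900.1 and 957 with PC, and 388 and 730.1 with Se-PC. Of 6 neutrophil markers 3 met the criterion as higher in SePC-La than in PC-La, namely S100a8, Retnlg and Mmp8. As higher in SePC-La than in Laser 3 met it, S100a8, S100a9 and Retnlg, and 1, Mmp8, was lower in PC-La than in Laser. The summed level of the 6 markers was 151 and 39.7 FPKM under laser alone, 146 and 78.3 with PC, and 337 and 440 with Se-PC. Of 7 tested skeletal muscle genes, 6 met the criterion as lower in PC-La than in Laser and 7 as lower in SePC-La than in Laser. The 6 were Acta1, Ckm, Myh1, Myh4, Tnnt3 and Mylpf, and the other was Tnni2. Endothelial markers summed to 26.9 to 44.9 FPKM, and no gene among the endothelial, T cell, adipocyte or epithelial markers met the criterion in any comparison. Adipocyte markers were at 2.03 to 6.69 FPKM except in SePC-La replicate 2, at 20.95, the tumor with the highest Postn, Thy1 and Acta2. Of the epithelial markers Krt5 and Krt14 were at 0, while Krt8 and Krt18 were present in every tumor. The part of these cell types in the results was not tested.

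**Figure D4:**
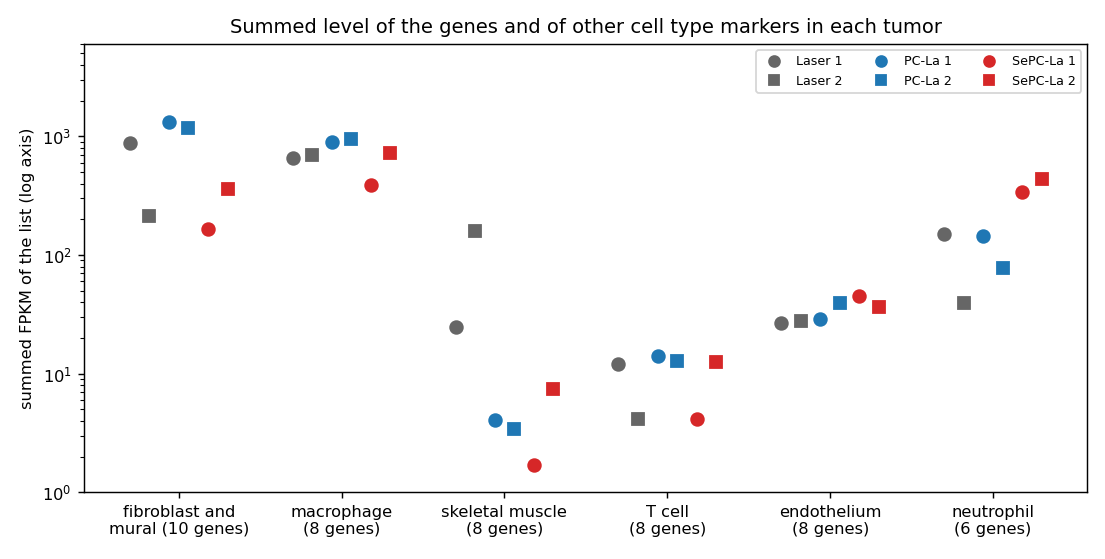
Summed FPKM (log axis) of the 10 genes and of other cell type marker lists in each tumor, by group colour and replicate shape. The summed level of the 10 genes, most of it from Fn1, Lum and Dcn, was lowest in SePC-La replicate 1 and Laser replicate 2. T cell markers were also lowest in those tumors, while muscle markers peaked in Laser replicate 2 at 158 FPKM. Not every gene followed the sum, and Pdgfrb was lowest in PC-La replicate 1.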

How the data were processed

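RNA from 6 tumors was sequenced, and 1 table of 21899 genes was deposited. The authors' deposited values are FPKM. Their products with the exon lengths of GENCODE M21 (GRCm38) were whole reads for 97.8% of 16785 expressed genes (tolerance 0.02 reads), which settled the unit. The submitters' processing notes name HISAT2 2.0.5, HTSeq 0.9.1, DESeq 1.30.0 and mm9, whereas the exon lengths of GRCm38 gave whole reads. Use of strand in counting is not given in the sources used here.

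Groups followed the sample titles. Values were tested as log2(FPKM + 1) for 10853 genes averaging 1 FPKM or more, by limma 3.58.1 in R 4.3.3 with trended, robust variance moderation, 1 fit over 6 samples and Benjamini-Hochberg adjustment. An exact permutation test of 2 against 2 samples cannot go below p = 0.333, so none is given. The criterion was an absolute log2 fold change over 1 with an unadjusted p under 0.05. The procedure was tested on simulated data with the same dispersion for every gene, a setting that does not cover genes as variable as Lum and Dcn. The total reads per tumor, 14447792 to 17649489, were recovered from the scaling of the values, as the worth of 1 read. They set the counting precision, and floors of 3 reads cover counting error only.

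The members and lists were chosen with earlier results of these data known. All members were described. Of each other list, the genes that met the criterion in a comparison were named. Where none did, genes with a small p were given, except for the endothelial, T cell, adipocyte and epithelial lists. The 5 genes most like the members' mean profile were added, among genes averaging 5 FPKM or more. One result of the TGF-beta list is not reported here. Promoter windows came from RefSeq (GRCm38.p6). Alternatives were a pseudocount of 0.1, no filter or a mean of at least 5 FPKM, median-ratio and quantile scaling, variance moderation without the trend or without robust estimation, fits of just the 4 samples compared, a replicate block, leaving out each sample, and voom on recovered reads, which was chosen after seeing the data.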

Additional observations from a re-analysis of the deposited data

How the results depend on the processing

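Of 420 recomputed log2 fold changes of single genes, 358 kept their direction and their side of the criterion, 32 passed it newly, 10 no longer passed it and 20 changed direction. Many of the 420 could not change direction. The filters, the variance moderation, the replicate block and the absence of samples from outside a comparison leave the estimate as it is. Only its p-value can move there, so the 358 overstate how far directions were tried. Fn1 met the criterion between SePC-La and PC-La under all alternatives. The count of members that met it was 1 between PC-La and Laser, 2 with quantile scaling and 0 with only the 4 samples compared, with a range from 0 to 6 when samples were left out. Between SePC-La and Laser it was 0, 1 with voom on recovered reads (chosen after seeing the data), and 0 to 4 with samples left out. Between SePC-La and PC-La it was 2, 4 without the filter, without the trend or without robust estimation, 1 with a mean of at least 5 FPKM (where Fap is not among the genes tested) or with voom, 5 with only the 4 samples compared, and 1 to 6 with samples left out. In these fits the lone sample of a group is assumed to vary like the other groups. The causes of the other moves were not tested.

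Over all genes, the count between PC-La and Laser was 140, 68 with a mean of at least 5 FPKM, 220 with voom, 627 at any fold change, and 71 to 664 with samples left out. Between SePC-La and Laser it was 74, 129 with a pseudocount of 0.1, 46 with a mean of at least 5 FPKM, 133 with voom, 1318 at any fold change, and 60 to 253 with samples left out. Between SePC-La and PC-La it was 323, 488 with a pseudocount of 0.1, 186 with a mean of at least 5 FPKM, 2637 at any fold change, and 169 to 584 with samples left out. Of these 323 genes 128 were higher in SePC-La and 195 lower, against 166 and 149 with median-ratio scaling, 169 and 149 with quantile scaling, and 92 and 94 with a mean of at least 5 FPKM.

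Directions changed with samples left out, except for Pdgfrb between SePC-La and Laser, which also turned to 0.055 with quantile scaling. The ranges between PC-La and Laser were -0.11 to 1.81 for Pdgfra and -0.56 to 0.38 for Pdgfrb. Between SePC-La and Laser they were -1.76 to 0.17 for Pdgfra, -0.29 to 0.13 for Pdgfrb, -2.34 to 0.46 for Dcn, -2.64 to 0.42 for Lum, -1.41 to 0.39 for Fap, -0.20 to 1.38 for Postn and -0.16 to 0.64 for Thy1. Between SePC-La and PC-La they were -0.46 to 0.48 for Pdgfrb, -1.03 to 0.55 for Postn, -0.61 to 0.19 for Thy1 and -0.059 to 0.54 for Acta2. The deviations of same-numbered samples from their group means had correlations over genes of 0.086 (Laser and PC-La), -0.43 (Laser and SePC-La) and -0.18 (PC-La and SePC-La). With 2 samples a group, these values cannot show whether the numbers pair the samples, and no source used here says so. A replicate block left the counts of members at 1, 0 and 2, and gave 133, 81 and 285 over all genes.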
